A study of Mus musculus with 15 samples.

Results

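The p53 pathway was followed in 7 genes of 53700 counted, in germinal vesicle (GV) oocytes of the mouse, fully grown oocytes arrested before meiosis resumes. The 7 are Trp53, which encodes p53, its inhibitor Mdm2, and the target genes Cdkn1a, Ccng1, Btg2, Plk2 and Sesn1. They were picked from the known p53 pathway after Plk2, Ccng1, Btg2 and Sesn1 had been seen to be higher in Padi6 knockout (KO) than in Padi6 heterozygous (het) oocytes. That contrast therefore chose the genes, and its values for them are given as a description with no test, while the Tle6 line, which the choice did not use, gives the tests.

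Polyadenylated RNA was sequenced in libraries of 15 pooled GV oocytes. Padi6 KO (3 libraries) and Padi6 het oocytes (3 libraries) were on the FVB/N background. Tle6 KO (4 biological replicates, 5 libraries) and Tle6 het oocytes (2 biological replicates, 4 libraries) were on the C57BL/6J background. The controls of both lines are heterozygotes and so carry a mutant allele too, the line and the strain cannot be told apart, and the labels do not say how many animals gave the oocytes of a library or how old they were. P-values thus measure only the spread between these libraries, which may be partly technical. PADI6 belongs to the peptidylarginine deiminases and TLE6 to the subcortical maternal complex, and the cytoplasmic lattices of the oocyte are known to depend on both.

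The p53 protein binds DNA at response elements made of paired decamer motifs and raises the transcription of genes that halt the cell cycle, repair DNA or kill the cell. MDM2 marks p53 for destruction and is itself a p53 target, which closes a feedback loop. In oocytes the relative p63 is known as the main guard against DNA damage, and fully grown GV oocytes transcribe little, so that levels there reflect stored transcripts as well as new ones.

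The libraries held 30100177 to 74947533 counts in genes. Padi6 transcripts stood at 18.2 to 25.1 CPM, the usual depth-scaled count, here of gene counts and scaled by TMM, in Padi6 KO oocytes, against 1617 to 1747 CPM in Padi6 het oocytes, and Tle6 transcripts at 61.1 to 98.9 CPM in Tle6 KO oocytes, against 425 to 457 CPM in Tle6 het oocytes. In the Padi6 line, Tle6 transcripts stood at 1009 to 1339 CPM in KO and 1183 to 1322 CPM in het oocytes. The Tle6 het oocytes thus lay well below these, and gene dosage and strain cannot be told apart in that gap. The 12 oocyte markers summed to 14670 to 19360 CPM. The 16 granulosa and cumulus markers summed to 105.6 to 119.7 CPM in Padi6 KO and 102.8 to 123.1 CPM in Padi6 het oocytes, and to 106.9 to 121.2 CPM in Tle6 KO and 100.6 to 131.2 CPM in Tle6 het oocytes, mostly from Cyp19a1 and Nr5a2. Of the 12 tested in the Padi6 line, 2 had a positive difference of KO minus het and 10 a negative one (median -0.47). Has2, a hyaluronan synthase gene of cumulus cells, passed the edgeR test as higher, at 10.9 CPM in Padi6 KO and 2.43 CPM in Padi6 het oocytes, and none passed as lower. At an unadjusted p under 0.05, 4 were lower and 1 higher, and DESeq2 called 3 lower and 1 higher. The 4 were Cyp11a1, at 3.25 CPM in Padi6 KO and 11.6 CPM in Padi6 het oocytes, and Inha, Fshr and Amhr2, each under 1.5 CPM in both groups. Over all genes tested in the Padi6 line, edgeR passed 1.69% as higher and 0.724% as lower. At an unadjusted p under 0.05 the shares were 9.45% higher and 9.19% lower, and by DESeq2 4.62% higher and 2.93% lower. Of the 13 tested in the Tle6 line, 9 were positive (median 0.55) and 0 passed edgeR, with 3 higher at an unadjusted p under 0.05 and 1 higher by DESeq2. The 11 theca and stroma markers summed to 2.87 to 5.46 CPM in Padi6 KO and 4.63 to 6.31 CPM in Padi6 het oocytes, and to 3.72 to 5.26 CPM in Tle6 KO and 6.69 to 7.10 CPM in Tle6 het oocytes, with Insl3 at 0. This theca and stroma sum lay lower in every Tle6 KO replicate than in either Tle6 het replicate, with 0 of 7 tested past edgeR, 1 higher and 4 lower at an unadjusted p under 0.05, and 1 higher and 2 lower by DESeq2. Of all single genes tested in the Tle6 line, 16.0% had every KO replicate below every het replicate. At an unadjusted p under 0.05, 9.48% of them were higher and 9.51% lower, and DESeq2 called 4.35% higher and 4.55% lower. The 9 blood and immune markers summed to 24.7 to 26.9 CPM in Padi6 KO and 27.3 to 30.3 CPM in Padi6 het oocytes, and to 20.1 to 32.2 CPM in Tle6 KO and 24.6 to 34.1 CPM in Tle6 het oocytes, nearly all from Pecam1, with Hbb-bs and Hba-a2 at 0. This blood and immune sum lay lower in every Padi6 KO library than in any Padi6 het library, as did 12.5% of all single genes tested in that line. The part of these cells in the values below was not tested, and in such pooled libraries fewer cells of a type and less RNA per cell cannot be told apart.

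Libraries of the Tle6 line stood apart in ways the genotype does not follow. The technical libraries of Tle6 het replicate 2, A and B, correlated at r = 0.921 in log2 CPM across 13282 genes, whereas the A and B libraries of Tle6 KO replicate 4 and of Tle6 het replicate 1 each correlated at 0.997. Tle6 KO replicates 2 and 3 had 0.475% and 0.461% of their counts in mitochondrially encoded genes, against 0.225% in KO replicate 1 and 0.258% and 0.272% in the libraries of KO replicate 4. The Tle6 het libraries held 0.185% to 0.353%, and the Padi6 libraries 0.584% to 0.994%. Results in the Tle6 line are therefore also given by library.

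The sequences before the start sites of 5 target genes show which of them carry the p53 decamer motif close to the start. Each is the 250 bases before a RefSeq transcription start on GRCm38.p6, read on the gene's strand, and capitals mark a match to the p53 decamer consensus (10 bases, the same on both strands) or to TGACGTCA, the palindromic cAMP response element. Plk2 lies on chromosome 13 (chr13:110394794-110395043, plus strand), Btg2 on chromosome 1 (chr1:134079156-134079405, minus strand), Ccng1 on chromosome 11 (chr11:40755287-40755536, minus strand), Sesn1 on chromosome 10 (chr10:41887189-41887438, plus strand, the downstream of its start sites in the table) and Cdkn1a on chromosome 17 (chr17:29090729-29090978, plus strand, the upstream of its start sites).
Plk2: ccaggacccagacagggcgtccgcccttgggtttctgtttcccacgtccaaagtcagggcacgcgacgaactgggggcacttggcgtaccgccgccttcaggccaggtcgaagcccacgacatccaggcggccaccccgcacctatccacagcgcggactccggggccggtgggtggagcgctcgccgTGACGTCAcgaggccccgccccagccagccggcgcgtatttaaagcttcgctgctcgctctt
Btg2: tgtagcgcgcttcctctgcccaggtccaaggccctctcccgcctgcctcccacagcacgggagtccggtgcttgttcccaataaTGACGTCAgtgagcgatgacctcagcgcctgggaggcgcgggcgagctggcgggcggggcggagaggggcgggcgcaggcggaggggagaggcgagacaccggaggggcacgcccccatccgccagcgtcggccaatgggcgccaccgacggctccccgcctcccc
Ccng1: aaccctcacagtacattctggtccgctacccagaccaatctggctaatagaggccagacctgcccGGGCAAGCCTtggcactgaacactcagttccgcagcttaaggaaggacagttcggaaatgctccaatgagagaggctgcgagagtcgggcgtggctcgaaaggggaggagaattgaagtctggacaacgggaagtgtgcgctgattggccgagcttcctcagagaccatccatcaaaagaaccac
Sesn1: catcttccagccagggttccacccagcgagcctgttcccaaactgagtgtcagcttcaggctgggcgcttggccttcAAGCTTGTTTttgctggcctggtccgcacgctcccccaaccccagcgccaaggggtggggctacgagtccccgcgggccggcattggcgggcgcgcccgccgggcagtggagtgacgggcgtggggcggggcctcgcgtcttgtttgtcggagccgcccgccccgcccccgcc
Cdkn1a: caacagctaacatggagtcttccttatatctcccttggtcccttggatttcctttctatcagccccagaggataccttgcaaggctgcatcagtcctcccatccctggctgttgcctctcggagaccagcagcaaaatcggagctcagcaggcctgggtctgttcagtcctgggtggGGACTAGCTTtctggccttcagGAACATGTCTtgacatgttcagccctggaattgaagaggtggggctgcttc

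A decamer lay in 5 of the 7 genes when the windows of 300 bases, from 250 before to 50 after each start, were searched. Cdkn1a held GGACTAGCTT at -73 to -64 and GAACATGTCT at -51 to -42, counted from the upstream of its start sites. Ccng1 held GGGCAAGCCT at -185 to -176 from its start site. Sesn1 held AAGCTTGTTT at -173 to -164, counted from the downstream of its start sites. Mdm2 held GAACTTGCCT at -186 to -177 and Trp53 held GGACTTGCCC at -75 to -66. No decamer lay in the windows of Plk2 and Btg2 or in the remaining windows of Sesn1 and Cdkn1a. Counted by gene, 9.55% of the 27025 genes with a RefSeq window and 21.6% of the 37 other p53 targets with one held a decamer. Counted by window, 5 of the 9 windows of the 7 genes did, against 8.36% of all 32851 windows and 17.0% of the 53 windows of other p53 targets. The motif TGACGTCA, searched only after these sequences had been read, lay at -62 to -55 in Plk2 and at -166 to -159 in Btg2, and in 1.79% of all windows. A match is a description of letters and not a bound site.

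In the Padi6 line Trp53 stood at 37.3, 35.3 and 38.2 CPM across Padi6 KO libraries 1 to 3, against 38.7, 31.0 and 33.2 CPM across Padi6 het libraries 1 to 3. The groups overlapped, and the log2 difference of KO minus het was 0.13 ± 0.12 (SE). Mdm2, the gene of the ubiquitin ligase that restrains p53, stood at 133, 120.0 and 120.4 CPM in Padi6 KO, against 136, 115 and 127 CPM in Padi6 het oocytes. These groups overlapped too, with a log2 difference of 0.00 ± 0.10 whose sign turned in 4 of 13 alternative analyses, within -0.05 to 0.07. Cdkn1a, which encodes the cyclin-dependent kinase inhibitor p21, was close to absent. Its counts were 35, 69 and 43 in Padi6 KO libraries, against 26, 28 and 34 in Padi6 het libraries, which came to 0.47, 1.08 and 0.89 CPM in KO and 0.49, 0.54 and 0.55 CPM in het oocytes. KO library 1 lay below every het library and the other KO libraries above them, and the log2 difference was 0.64 ± 0.39.

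The 4 genes for which the list was drawn up had every Padi6 KO library above every Padi6 het library. Plk2, which encodes a polo-like kinase induced by stress and synaptic activity, stood at 9.53, 6.95 and 10.8 CPM in Padi6 KO, against 4.41, 4.79 and 5.16 CPM in Padi6 het oocytes. Its log2 difference of 0.95 ± 0.20 was the largest among the 7. Sesn1, a sestrin that restrains mTORC1 signalling, stood at 7.99, 6.38 and 8.03 CPM in Padi6 KO, against 4.32, 5.72 and 3.34 CPM in Padi6 het oocytes, a log2 difference of 0.76 ± 0.23. Its nearest libraries were close together, KO library 2 and het library 2.

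Btg2, an antiproliferative protein that brings the deadenylase complex to mRNAs, stood at 30.4, 35.8 and 40.6 CPM in Padi6 KO, against 20.9, 24.7 and 23.9 CPM in Padi6 het oocytes, a log2 difference of 0.64 ± 0.15. Ccng1, which encodes cyclin G1, a partner of protein phosphatase 2A, stood at 9.15, 10.8 and 9.04 CPM in Padi6 KO, against 5.02, 7.62 and 6.34 CPM in Padi6 het oocytes, a log2 difference of 0.63 ± 0.19. Every KO library of both genes lay above the het libraries. Over all 18228 genes tested in this line, 10.8% had every KO library above every het library and 12.5% every KO library below, and the median log2 difference was -0.01, against 0.64 for the 7 genes. Since these values chose the genes, nothing is read from their count.

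**Figure D1:**
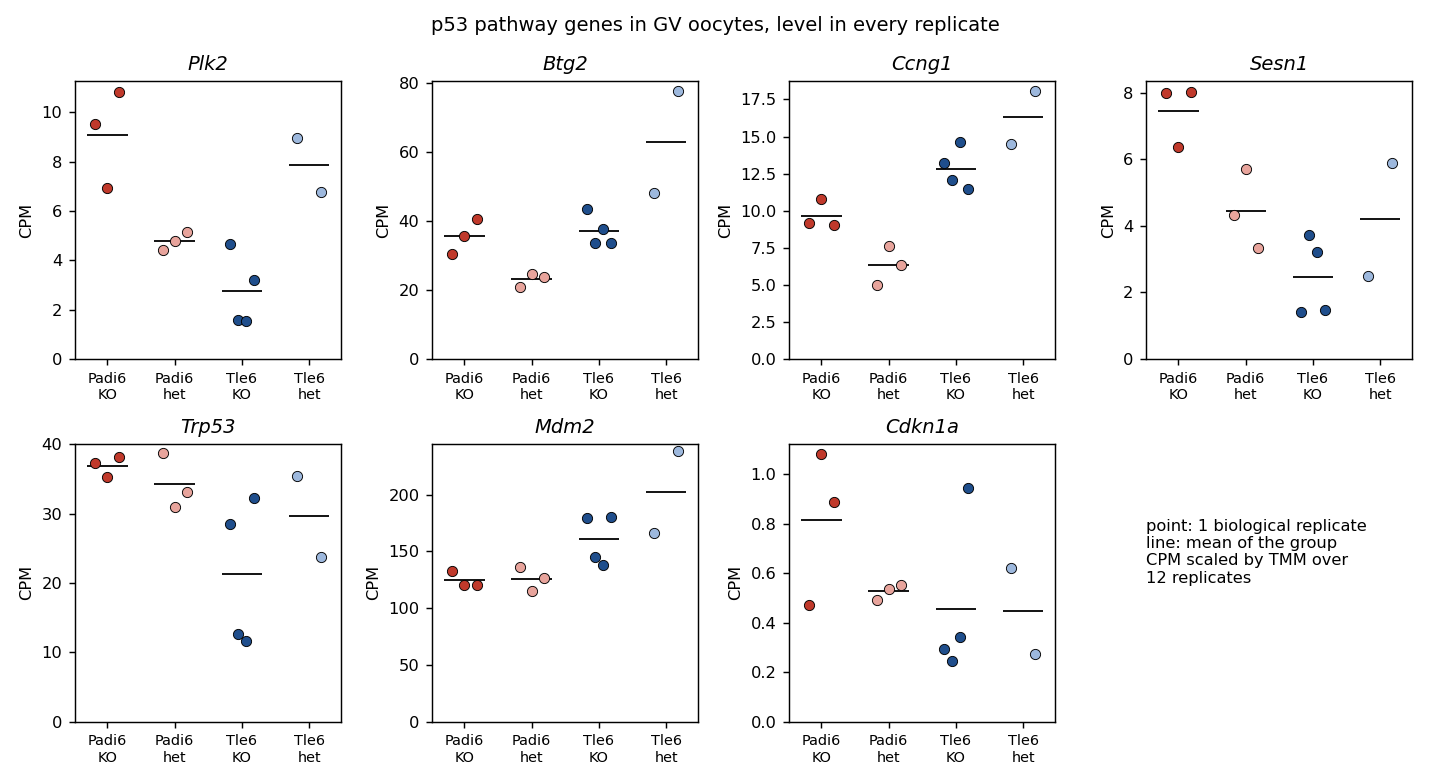
Level of each of the 7 genes in CPM (vertical axis, from 0) in Padi6 KO, Padi6 het, Tle6 KO and Tle6 het oocytes, with 1 point for each biological replicate and a line at the group mean. Plk2, Btg2, Ccng1 and Sesn1 lie higher in every Padi6 KO replicate than in any Padi6 het replicate, whereas in the Tle6 line Plk2 and Btg2 lie lower in every KO replicate than in any het replicate. Technical libraries are summed here, and library A of Tle6 het replicate 2 alone lies within the range of the KO libraries for Plk2 and Btg2.

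In the Tle6 line 6 of the 7 genes had a negative difference of KO minus het, as had 45.9% of all genes tested, and 0 of the 7 passed the test across all genes (edgeR quasi-likelihood test, two-sided, Benjamini-Hochberg adjusted p under 0.05). Of the 20276 genes tested there, 1.62% passed, 0.587% higher in KO and 1.04% lower in KO. At an unadjusted p under 0.05, 2 of the 7 were lower in KO, Btg2 and Plk2, and DESeq2 called 1, Plk2. Over all genes these shares were 9.51% lower at an unadjusted p under 0.05 and 4.55% lower by DESeq2. The median log2 difference of the 7 was -0.43, against 0.06 over all genes tested. Scaling by total counts instead of TMM moved the median of all genes to 0.22, and with it Plk2 to -1.34 and Btg2 to -0.56.

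Plk2 stood at 4.66, 1.57, 1.53 and 3.22 CPM in the 4 Tle6 KO replicates, against 8.95 and 6.78 CPM in the 2 Tle6 het replicates. Every KO replicate lay below both het replicates. The log2 difference was -1.48 ± 0.46 (SE, 95% interval -2.52 to -0.43), with an unadjusted p of 0.0109 and an edgeR adjusted p of 0.141. DESeq2 gave -1.51 ± 0.48 with an adjusted p of 0.0250. The het value of replicate 2 joined unlike libraries, library A with 2.54 CPM and library B with 9.92 CPM, and library A lay within the range of the KO libraries, 1.53 to 4.71 CPM. Without library B the difference was -1.06 with an edgeR adjusted p of 0.489, and without library A it was -1.76 with an adjusted p of 0.0912.

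Btg2 stood at 43.6, 33.6, 37.7 and 33.8 CPM in Tle6 KO, against 48.2 and 77.8 CPM in Tle6 het oocytes. Here too every KO replicate lay below both het replicates. The log2 difference was -0.72 ± 0.24 (95% interval -1.26 to -0.18), with an unadjusted p of 0.0142 and an edgeR adjusted p of 0.156. The high value again came from library B of het replicate 2, at 103 CPM, while the other het libraries stood at 44.9, 47.3 and 43.96 CPM. The KO libraries stood at 32.7 to 44.01 CPM, so that library A of het replicate 2 lay just within their range. Without library B the difference was -0.30 with an edgeR adjusted p of 0.597, and without library A it was -1.01 with an adjusted p of 0.116. Over all genes tested in this line, 16.0% had every KO replicate below every het replicate and 13.3% every KO replicate above. Among the 7, these were 2 and 0.

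Sesn1 stood at 1.43, 3.72, 3.21 and 1.46 CPM in Tle6 KO, against 2.51 and 5.88 CPM in Tle6 het oocytes. The groups overlapped, KO replicates 2 and 3 lay above het replicate 1, and the log2 difference was -0.74 ± 0.50 (edgeR adjusted p = 0.458). Het libraries 2A and 2B stood at 3.34 and 7.78 CPM. Without library B the difference was -0.24. Ccng1 stood at 13.2, 12.1, 14.7 and 11.5 CPM in Tle6 KO, against 14.5 and 18.1 CPM in Tle6 het oocytes. KO replicate 3 lay just above het replicate 1, and the log2 difference was -0.30 ± 0.22 (edgeR adjusted p = 0.499). Without library B of het replicate 2, which stood at 22.0 CPM, it was -0.08.

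Trp53 stood at 28.5, 12.7, 11.6 and 32.3 CPM in Tle6 KO, against 35.4 and 23.8 CPM in Tle6 het oocytes. KO replicates 1 and 4 lay between the het values and KO replicates 2 and 3 well below them, so that the spread within KO was larger than the log2 difference of -0.43 ± 0.43 (edgeR adjusted p = 0.624). The same KO replicates 2 and 3 were the lowest for Plk2 and the highest for Sesn1 within KO, and they had the higher mitochondrial share given above. The part of that share in these values was not tested. Library A of het replicate 2 held 15.2 CPM of Trp53 and library B 30.3 CPM.

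Mdm2 stood at 179, 145, 138 and 180 CPM in Tle6 KO, against 166 and 239 CPM in Tle6 het oocytes. The groups overlapped, with a log2 difference of -0.29 ± 0.22 (edgeR adjusted p = 0.499). Without library B of het replicate 2, which held 289 CPM, it was -0.07. Cdkn1a had 13, 15, 25 and 73 counts in Tle6 KO, against 49 and 27 counts in Tle6 het oocytes, and levels of 0.29, 0.24, 0.34 and 0.94 CPM in KO and 0.62 and 0.27 CPM in het oocytes. KO replicate 4 alone stood apart, and the log2 difference of 0.09 ± 0.67 has a 95% interval of -1.42 to 1.59 and turned its sign in 4 of 14 alternative analyses.

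**Figure D2:**
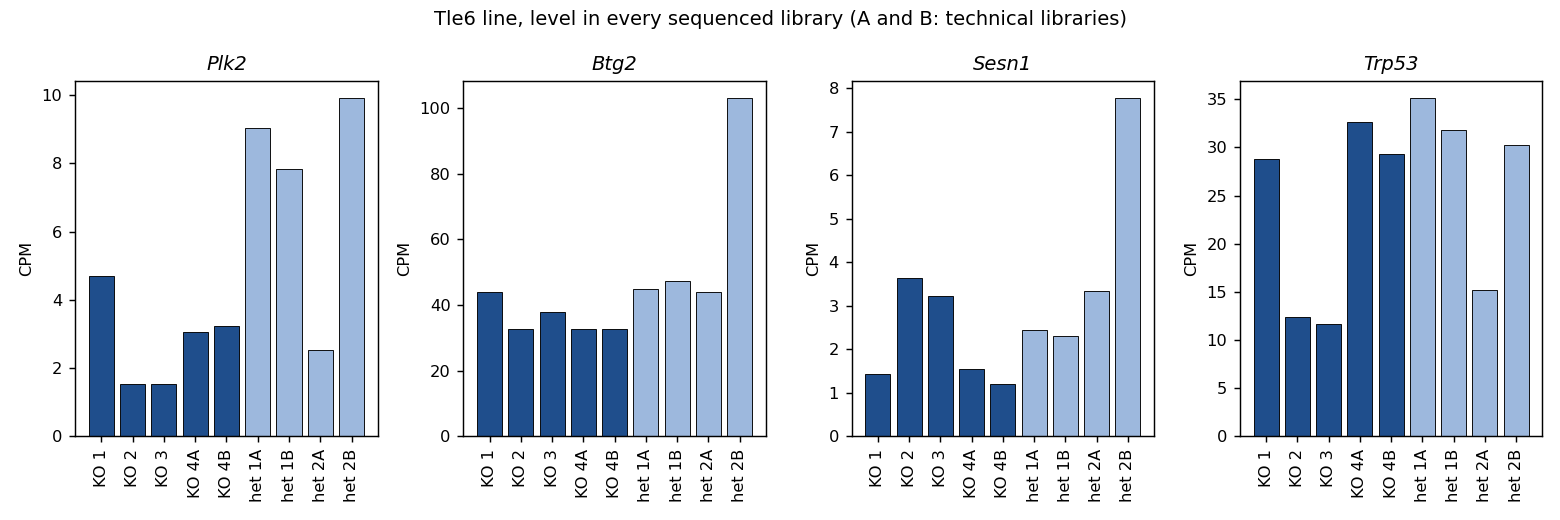
Level of Plk2, Btg2, Sesn1 and Trp53 in CPM (vertical axis, from 0) in each of the 9 sequenced libraries of the Tle6 line, KO in dark and het in light bars, where A and B are technical libraries of 1 replicate. Library B of het replicate 2 holds 103 CPM of Btg2 while library A holds 44.0 CPM, and Trp53 is at 12.4 and 11.6 CPM in KO libraries 2 and 3.

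Set side by side, Plk2 differed by 0.95 on the log2 scale in the Padi6 line and by -1.48 in the Tle6 line, and Btg2 by 0.64 and -0.72. Sesn1 differed by 0.76 and -0.74, and Ccng1 by 0.63 and -0.30. Of the 4, only Plk2 and Btg2 had KO and het replicates without overlap in both lines, in opposite directions, and the choice of the genes had used the Padi6 side. Over all genes tested, 10.8% had every KO replicate above every het replicate in the Padi6 line and 16.0% every KO replicate below in the Tle6 line. The share with both was not counted. In the Tle6 line this holds for summed technical libraries, and library A of het replicate 2 alone lay within the range of the KO libraries for both genes. The difference between the lines was not tested, and strain, library make-up and genotype cannot be told apart in it.

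**Figure D3:**
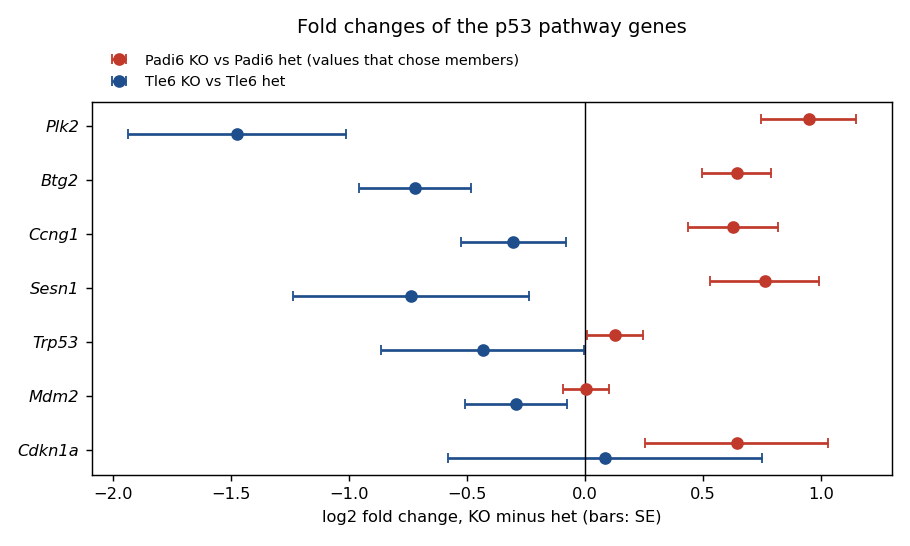
Log2 difference of KO minus het (horizontal axis) with its SE as a bar, for each of the 7 genes in the Padi6 line (upper, red) and the Tle6 line (lower, blue). The Padi6 values chose the genes and carry no test, and Plk2 has the widest gap between the lines, at 0.95 and -1.48.

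The order of the 4 groups differed from gene to gene. Plk2 averaged 9.09 ± 1.96 CPM in Padi6 KO (SD, n = 3), 7.86 ± 1.53 in Tle6 het (n = 2), 4.78 ± 0.37 in Padi6 het (n = 3) and 2.75 ± 1.50 in Tle6 KO oocytes (n = 4). The Tle6 het and Padi6 het replicates did not overlap, but the other neighbours in this order did. Btg2 averaged 63.0 ± 20.9 CPM in Tle6 het, 37.2 ± 4.72 in Tle6 KO, 35.6 ± 5.13 in Padi6 KO and 23.1 ± 2.00 in Padi6 het oocytes, where Tle6 KO and Padi6 KO overlapped. Ccng1 was at 16.3 ± 2.52 CPM in Tle6 het, 12.8 ± 1.40 in Tle6 KO, 9.65 ± 0.97 in Padi6 KO and 6.33 ± 1.30 in Padi6 het oocytes. Only its Tle6 groups overlapped, so every Tle6 replicate held more Ccng1 than any Padi6 replicate.

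Sesn1 averaged 7.47 ± 0.94 CPM in Padi6 KO, 4.46 ± 1.20 in Padi6 het, 4.19 ± 2.38 in Tle6 het and 2.46 ± 1.19 in Tle6 KO oocytes, and Padi6 KO alone stood clear of its neighbour. Trp53 averaged 36.9 ± 1.49 CPM in Padi6 KO, 34.3 ± 4.00 in Padi6 het, 29.6 ± 8.20 in Tle6 het and 21.3 ± 10.7 in Tle6 KO oocytes, with every neighbour overlapping. Mdm2 averaged 202 ± 51.4 CPM in Tle6 het, 161 ± 22.1 in Tle6 KO, 126 ± 10.7 in Padi6 het and 125 ± 7.45 in Padi6 KO oocytes. The 2 lines stood apart for Mdm2 and the genotypes within a line did not. Cdkn1a averaged 0.81 ± 0.31 CPM in Padi6 KO, 0.53 ± 0.03 in Padi6 het, 0.46 ± 0.33 in Tle6 KO and 0.45 ± 0.25 in Tle6 het oocytes, and all neighbours overlapped.

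Per kilobase of exon, so that genes can be compared with each other, Mdm2 was the most abundant of the 7 at 29.5 CPM per kb (mean of the 12 biological replicates). Btg2 followed at 13.7, Trp53 at 7.38, Ccng1 at 3.13, Plk2 at 1.27 and Sesn1 at 1.13 CPM per kb, and Cdkn1a was at 0.158 CPM per kb. Relatives of several of them were far higher. Mdm4, the partner of Mdm2 in restraining p53, was at 117 CPM per kb. Btg4, an oocyte adaptor of the deadenylase complex known to be needed for maternal mRNA clearance, was at 722 CPM per kb, and Tob2 of the same family at 149 CPM per kb. Among the relatives of p53, Trp63 was at 4.13 and Trp73 at 2.32 CPM per kb. On this scale Trp63 thus lay below Trp53, whereas in CPM Trp63 lay above, at 34.6 against 29.8. The exon lengths, 8391 bases for Trp63 and 4045 for Trp53, pool all annotated exons of a gene and come from an annotation of another build. Which of these exons the oocytes used was not tested.

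**Figure D4:**
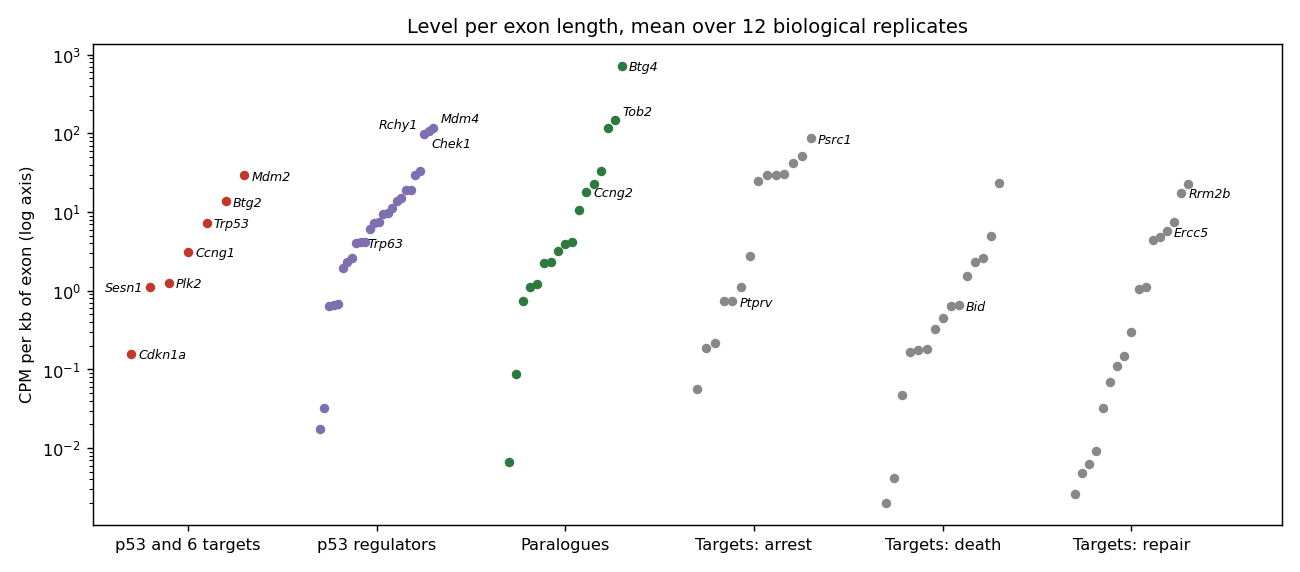
Mean level over the 12 biological replicates in CPM per kilobase of exon (vertical log axis), with 1 point for each gene of a list and genes at 0 left out. Cdkn1a lies lowest of the 7 genes at 0.158 and Mdm2 highest at 29.5, while Btg4 reaches 722 CPM per kb among the relatives.

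The regulators of p53, from DNA damage kinases to ubiquitin ligases, gave no call in either line. Of the 24 tested in the Padi6 line none passed in either direction (edgeR, median log2 difference -0.12), with 0 higher and 5 lower at an unadjusted p under 0.05 and 0 by DESeq2. Over all genes of the Padi6 line, 9.45% were higher and 9.19% lower at an unadjusted p under 0.05, and 4.62% higher and 2.93% lower by DESeq2. Of the 25 tested in the Tle6 line none passed (median -0.05), with 3 higher and 5 lower at an unadjusted p under 0.05 and 2 lower by DESeq2. Over all genes of the Tle6 line, 9.48% were higher and 9.51% lower at an unadjusted p under 0.05, and 4.35% higher and 4.55% lower by DESeq2. The edgeR test passed 2.41% of all genes in the Padi6 line, 1.69% higher in KO and 0.724% lower in KO. The 4 regulators of highest level were Mdm4, the checkpoint kinase gene Chek1, and the ubiquitin ligase genes Rchy1 and Cop1.

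Mdm4 averaged 924 ± 5.59 CPM in Padi6 KO and 1153 ± 73.1 in Padi6 het oocytes, a log2 difference of -0.30 ± 0.09 (edgeR adjusted p = 0.109). It averaged 2011 ± 262 CPM in Tle6 KO and 3231 ± 154 in Tle6 het oocytes, a log2 difference of -0.64 ± 0.19 (edgeR adjusted p = 0.121). KO lay below het without overlap in both lines, and neither difference passed. Such a gap with KO lower was found for 12.5% of all genes tested between the Padi6 groups. Between the Tle6 groups the share was 16.0%, and genes with both were not counted. Chek1 was at 403 CPM in Padi6 KO and 419 CPM in Padi6 het oocytes, and at 427 CPM in Tle6 KO and 656 CPM in Tle6 het oocytes. Rchy1 was at 412 CPM in Padi6 KO and 391 CPM in Padi6 het oocytes, and at 359 CPM in Tle6 KO and 516 CPM in Tle6 het oocytes. For Cop1 the groups' means lay between 229 and 256 CPM in all 4 groups.

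Other p53 targets that act in arrest and growth showed 1 call. Over all genes, edgeR passed 1.69% as higher and 0.724% as lower in the Padi6 line, and 0.587% and 1.04% in the Tle6 line. For this list and those below, shares over all genes at an unadjusted p under 0.05 and by DESeq2 are those given with the regulators. None of 13 passed in the Padi6 line (median 0.06, 3 higher and 1 lower at an unadjusted p under 0.05, 1 higher by DESeq2). The single edgeR call in the Tle6 line, 1 of 14 tested (median -0.20, 1 higher and 2 lower at an unadjusted p under 0.05, 1 each way by DESeq2), was Ptprv, a receptor phosphatase gene described as a p53 target in mouse. Ptprv stood at 0.20, 0.13, 0.51 and 0.12 CPM in Tle6 KO, against 2.15 and 2.38 CPM in Tle6 het oocytes, from 9, 8, 37 and 9 counts in KO and 170 and 235 counts in het oocytes. Its level fell by 3.18 ± 0.58 on the log2 scale (edgeR adjusted p = 0.0381). Its adjusted p rose above 0.05 when KO replicate 1, 2 or 4, either het replicate or either library of het replicate 2 was left out, from 0.0515 to 0.138, with the difference at -3.46 to -2.94. In Padi6 oocytes it averaged 8.51 ± 4.60 CPM in KO and 10.3 ± 1.48 CPM in het.

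Targets that act in cell death showed 1 call. It was Bid, 1 of 12 tested in the Padi6 line, a BH3-only activator of BAX, and none passed as lower (median 0.03, 1 higher and 2 lower at an unadjusted p under 0.05, 1 higher by DESeq2). Bid stood at 5.87, 4.01 and 3.41 CPM in Padi6 KO, against 2.40, 1.78 and 1.72 CPM in Padi6 het oocytes. It rose by 1.19 ± 0.25 on the log2 scale (edgeR adjusted p = 0.0445), and the adjusted p was 0.0524 to 0.167 when any of the 6 libraries was left out, with the difference at 0.95 to 1.36. None of 13 passed in the Tle6 line (median -0.20, 2 higher and 2 lower at an unadjusted p under 0.05, 1 each way by DESeq2). Over all genes tested in the Padi6 line, edgeR passed 1.69% as higher and 0.724% as lower.

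Targets that act in repair and metabolism likewise showed 1. Ercc5, 1 of 12 tested in the Padi6 line, is the XPG nuclease gene of nucleotide excision repair, and it fell by 0.65 ± 0.11 (edgeR adjusted p = 0.0197). It was also the 1 lower gene of that list at an unadjusted p under 0.05 and by DESeq2, with 0 higher (median -0.16). Ercc5 stood at 34.3, 30.0 and 28.3 CPM in Padi6 KO, against 51.9, 45.9 and 49.4 CPM in Padi6 het oocytes. All KO libraries lay well below the het libraries. Over all genes tested in the Padi6 line, 12.5% had every KO library below every het library, and edgeR passed 0.724% as lower. The edgeR adjusted p for Ercc5 was 0.0864 without het library 3, 0.0949 without KO library 2 and 0.0702 without KO library 3. None of 13 passed in the Tle6 line (median 0.11, 1 higher and 2 lower at an unadjusted p under 0.05, 1 lower by DESeq2).

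The 4 other targets of highest level gave no call. Psrc1, a spindle protein gene, was at 254 CPM in Padi6 KO and 258 CPM in Padi6 het oocytes, and at 315 CPM in Tle6 KO and 362 CPM in Tle6 het oocytes. Rrm2b, the p53-inducible ribonucleotide reductase subunit, was at 136 CPM in Padi6 KO and 142 CPM in Padi6 het oocytes, and at 156 CPM in Tle6 KO and 239 CPM in Tle6 het oocytes. Trp53inp1 was at 156 CPM in Padi6 KO and 126 CPM in Padi6 het oocytes, and at 144 CPM in Tle6 KO and 243 CPM in Tle6 het oocytes. Prkab1, a subunit of AMP-activated kinase, was at 125 CPM in Padi6 KO and 152 CPM in Padi6 het oocytes, and at 172 CPM in Tle6 KO and 176 CPM in Tle6 het oocytes. None of these differences passed the edgeR test, with adjusted p from 0.143 to 0.998.

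Relatives of the 7 genes showed 1 call, Ccng2, which encodes cyclin G2, a paralogue of cyclin G1. Ccng2 stood at 53.2, 56.1, 74.7 and 41.8 CPM in Tle6 KO, against 132 and 142 CPM in Tle6 het oocytes. It fell by 1.24 ± 0.23 on the log2 scale (edgeR adjusted p = 0.0399). Every KO replicate lay far below both het replicates. Over all genes tested in the Tle6 line, 16.0% had every KO replicate below both, and edgeR passed 1.04% as lower. The Ccng2 difference stayed between -1.40 and -1.09 when single replicates or libraries were left out. The adjusted p was 0.0625 to 0.152 without KO replicate 1, 2 or 4, either het replicate or library B of het replicate 2. In the Padi6 line Ccng2 stood at 114, 146 and 143 CPM in KO, against 83.7, 97.2 and 100.4 CPM in het oocytes, a log2 difference of 0.54 ± 0.13 (edgeR adjusted p = 0.0584). The difference between the lines was not tested.

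In all, 0 of 15 relatives passed in the Padi6 line (median 0.21, 3 higher and 3 lower at an unadjusted p under 0.05, 2 higher by DESeq2), and 1 of 16 in the Tle6 line (edgeR, median -0.15, 1 higher and 3 lower at an unadjusted p under 0.05, 2 lower by DESeq2). Btg4 averaged 1825 ± 211 CPM in Padi6 KO and 1504 ± 63.4 in Padi6 het oocytes, and 1888 ± 306 in Tle6 KO and 2306 ± 24.1 in Tle6 het oocytes. Tob2 averaged 480 ± 63.7 CPM in Padi6 KO and 420 ± 69.5 in Padi6 het oocytes, and 1802 ± 1101 in Tle6 KO and 983 ± 340 in Tle6 het oocytes. Neither passed, and Tob2 ranged from 1105 to 3428 CPM within Tle6 KO alone. Trp63 averaged 41.8 ± 5.31 CPM in Padi6 KO and 34.0 ± 9.57 in Padi6 het oocytes, and 34.8 ± 2.46 in Tle6 KO and 24.3 ± 0.52 in Tle6 het oocytes, without passing in either line (edgeR adjusted p = 0.432 and 0.166). Trp73 was at 9.58 CPM in Padi6 KO and 12.2 CPM in Padi6 het oocytes, and at 14.5 CPM in Tle6 KO and 15.4 CPM in Tle6 het oocytes.

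Of the other relatives at 10 CPM or more, Cdkn1b, which encodes the p27 inhibitor, averaged 13.9 ± 4.82 CPM in Padi6 KO and 8.72 ± 3.24 in Padi6 het oocytes, and 22.5 ± 3.67 in Tle6 KO and 27.8 ± 2.38 in Tle6 het oocytes. Plk1 and Plk4, polo-like kinases of mitosis and of centriole duplication, averaged 61.9 and 191 CPM in Padi6 KO and 73.6 and 182 CPM in Padi6 het oocytes. In the Tle6 line they averaged 32.1 and 229 CPM in KO and 30.8 and 357 CPM in het oocytes. Btg1, Tob1 and Sesn3 averaged 17.8, 30.4 and 32.8 CPM in Padi6 KO and 14.9, 23.4 and 29.8 CPM in Padi6 het oocytes. They averaged 15.5, 24.3 and 33.7 CPM in Tle6 KO and 21.3, 17.9 and 44.4 CPM in Tle6 het oocytes, and none of these 6 passed the edgeR test in either line.

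Immediate early genes, which cells induce within minutes of a stimulus or of handling, were followed because Btg2 and Plk2 are also known as early response genes. None of 12 passed in the Padi6 line (median 0.32, 2 higher and 1 lower at an unadjusted p under 0.05 and also by DESeq2). Both calls in the Tle6 line, 2 of 19 tested, were higher in KO, Junb and Ier2 (edgeR, median 0.30, 3 higher and 0 lower at an unadjusted p under 0.05 and also by DESeq2). Over all genes tested in that line, edgeR passed 0.587% as higher and 1.04% as lower. At an unadjusted p under 0.05, 9.48% of all genes were higher and 9.51% lower, and by DESeq2 4.35% and 4.55%. Junb, a subunit of the AP-1 factor, stood at 0.63, 1.04, 1.20 and 1.09 CPM in Tle6 KO, against 0.15 and 0.09 CPM in Tle6 het oocytes, from 28, 64, 88 and 84 counts in KO and 12 and 9 counts in het oocytes. It rose by 3.07 ± 0.54 (edgeR adjusted p = 0.0327). Ier2 stood at 2.67, 3.91, 3.39 and 3.56 CPM in Tle6 KO, against 0.98 and 1.07 CPM in Tle6 het oocytes, and rose by 1.76 ± 0.33 (edgeR adjusted p = 0.0399).

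All KO replicates of both early genes lay above the het replicates, as for 13.3% of all genes tested in the Tle6 line. Without single replicates or libraries the adjusted p for Ier2 was 0.0524 to 0.143, and for Junb 0.0545 to 0.157 except without KO replicate 1 (0.0346). Fos averaged 0.74 CPM in Padi6 KO and 0.65 CPM in Padi6 het oocytes, and 4.49 CPM in Tle6 KO and 3.89 CPM in Tle6 het oocytes. Fos was named, like Egr1 and Fosb, after its values were seen. Fosb averaged 2.03 ± 0.42 CPM in Padi6 KO and 3.66 ± 0.40 in Padi6 het oocytes, the 1 lower gene at an unadjusted p. Its log2 difference was -0.83 ± 0.23 (edgeR adjusted p = 0.0946), and it averaged 3.23 CPM in Tle6 KO and 3.89 CPM in Tle6 het oocytes. Egr1 averaged 29.7 ± 4.00 CPM in Padi6 KO and 20.0 ± 1.92 in Padi6 het oocytes, a log2 difference of 0.59 ± 0.14 (edgeR adjusted p = 0.0528), and 31.0 ± 6.76 in Tle6 KO and 25.9 ± 8.75 in Tle6 het oocytes.

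**Figure D5:**
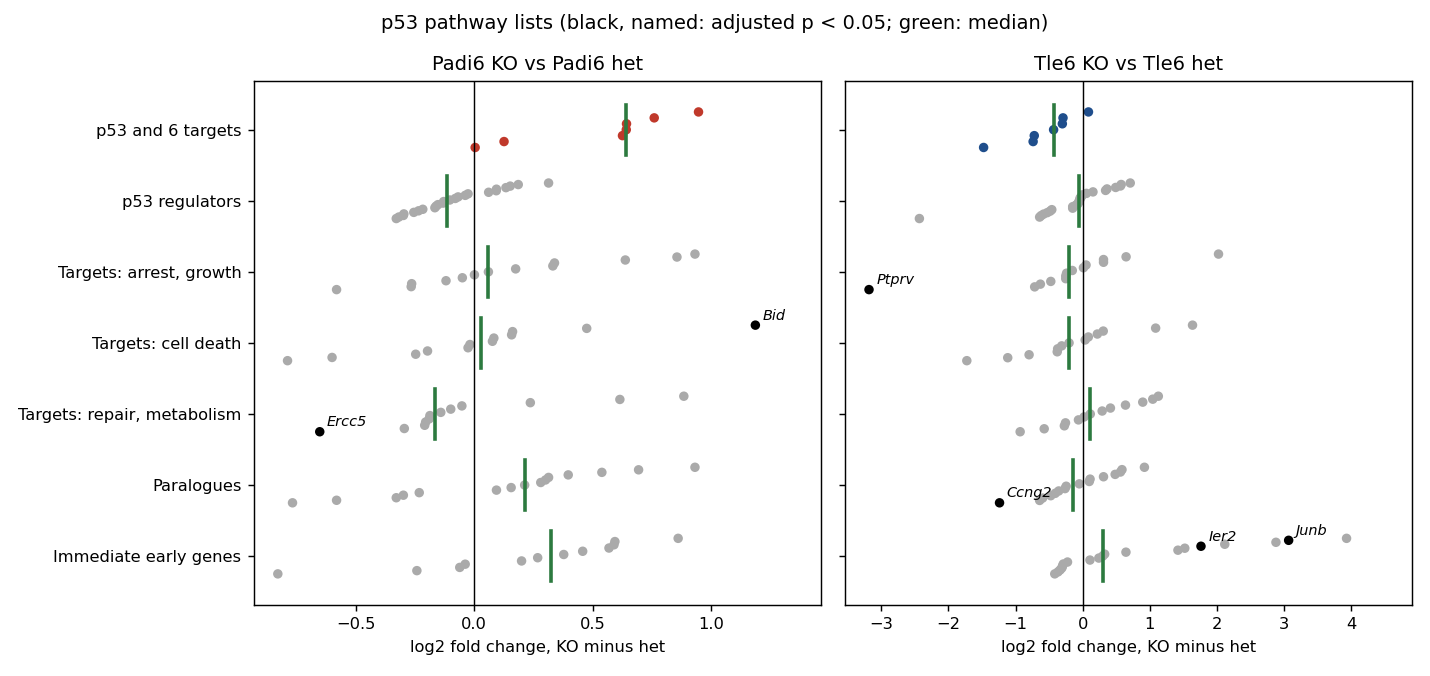
Log2 difference of KO minus het (horizontal axis) for each tested gene of 7 lists in the Padi6 line (left) and the Tle6 line (right), with black named points for an edgeR adjusted p under 0.05 and a green bar at each list's median. The points of p53 and its 6 targets are never marked black, whatever their p. The medians of the lists lie between -0.16 and 0.32 in the Padi6 line apart from 0.64 for p53 and its 6 targets, whose values there chose them, and between -0.20 and 0.30 in the Tle6 line apart from -0.43 for those 7.

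The genes whose levels followed each of the 7 most closely were sought among protein-coding genes of 10 CPM or more tested in both lines. Genes with a Gm or Rik name or no name were left out. This gave 7402 genes, from which any of the 7 were then removed. Likeness was Pearson's r of log2 CPM over the 12 biological replicates after each line's mean was subtracted. The replicates share their line's contrast and its libraries that stand apart, so r describes a shared pattern and carries no test. Trp53 was followed by Tmem109 (0.98), Oas1e (0.98) and Sec31a (0.98), and Mdm2 by AW146154 (0.96), Rpl26 (0.95) and Snx9 (0.95). Btg2 was followed by Ttbk2 (0.96), Cited2 (0.96) and Tmem65 (0.96), and Plk2 by Camkmt (0.97), Gyg (0.96) and Fam217a (0.96). Ccng1 was followed by Plxna2 (0.92), Tarbp1 (0.91) and Fsd1l (0.89), Sesn1 by U2surp (0.94), Cdc73 (0.93) and Polr3k (0.90), and the sparse Cdkn1a by Cldnd1 (0.90), Acin1 (0.85) and Nop10 (0.84). None of these 21 genes appears in the list of another of the 7. Lists this short, drawn from 7402 genes, need not share a gene, so nothing is read from that. Among the 7 themselves, r ranged from -0.38 for Sesn1 and Trp53 to 0.833 for Btg2 and Ccng1. It was 0.783 for Plk2 and Trp53, 0.742 for Btg2 and Plk2, and -0.294 for Cdkn1a and Sesn1.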

How the data were processed

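Polyadenylated RNA from 15 GV oocytes per library was made into libraries with a QIAseq FX Single Cell kit, per the labels' protocols. The authors deposited raw, unnormalised counts of reads for each gene. The submitters' processing notes name bcl2fastq 2.20.0.422, cutadapt 2.8, STAR 2.7.8a, HTSeq 2.0.2 and mm39. Not given in the sources used here are the annotation release and the strand setting, which leaves overlapping and antisense genes uncertain. The only exon overlap of the 7 genes was with AC167363.2, on the strand opposite Cdkn1a, at a mean of 0.2 counts.

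Reads outside genes (5.39 to 7.29%), in several genes (3.85 to 4.2%) or with several alignments (12.09 to 14.51%) and 92 spike-ins stayed out of library sizes and tests. Symbols, chromosomes and exon lengths came from GENCODE M21 (GRCm38), which named 52093 identifiers and left 1607 without a name, and promoters from RefSeq (GRCm38.p6), where all 7 genes matched. Groups follow the titles and genotype labels, although bracketed names within titles call the heterozygotes WT. Technical libraries A and B were summed. Each line was fitted alone with edgeR 4.0.16 in R 4.3.3 (TMM, filterByExpr, robust glmQLFit, glmQLFTest, two-sided, Benjamini-Hochberg, threshold 0.05), and the code was tested on simulated data. SEs are the log2 difference over the root of its F statistic, and 95% intervals are from that SE. All 7 genes passed the filter on low counts in both lines. CPM were scaled by TMM over the 12 biological replicates, or over the 15 libraries where libraries are shown, and log2 CPM used a prior count of 2. At these depths the spread between replicates, not counting, limits all but Cdkn1a and the lowest listed genes.

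The 7 genes and the lists were chosen with earlier results of these data known. The text names the 7, the listed genes past the test, the 4 regulators and the 4 other targets of highest mean CPM, the relatives at 10 CPM or more, and 3 genes of like pattern for each of the 7. Alternatives were total count scaling, RLE scaling, no filter, a stricter filter (mean CPM of 5 or more), the test of DESeq2 1.42.0, a spread shared by both lines, a replicate block, and each replicate or library of Tle6 het replicate 2 left out.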

Additional observations from a re-analysis of the deposited data

Results flagged for a closer look

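Cdkn1a in Tle6 KO replicate 4, at 0.94 CPM, stood apart from the other KO replicates, at 0.29, 0.24 and 0.34 CPM. Its technical libraries held 1.14 CPM (A) and 0.54 CPM (B). The gap exceeded the 95% limit of Dixon's rule for 4 samples, which chance exceeds in a share of about 0.05 of groups. The rule was applied to each of the 7 genes, and only in Tle6 KO, the only group with 4 replicates. A single flag among 7 looks is therefore weak.

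Btg2 differed by 0.64 on the log2 scale between KO and het in the Padi6 line and by -0.72 in the Tle6 line, and Plk2 by 0.95 and -1.48. Every KO replicate lay above the het replicates in the Padi6 line and below them in the Tle6 line, where technical libraries were summed. Library A of Tle6 het replicate 2 alone lay within the range of the KO libraries for both genes. Over all genes tested, 10.8% had every Padi6 KO replicate above every het replicate and 16.0% every Tle6 KO replicate below. The share with both was not counted. The difference between the lines was not tested, and the Padi6 values had chosen the genes.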

How the results depend on the processing

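In the Padi6 line the sign of the difference held in every alternative run for 6 of the 7 genes, with Plk2 at 0.78 to 1.12, Sesn1 at 0.58 to 1.00, Btg2 at 0.51 to 0.76, Ccng1 at 0.49 to 0.80, Cdkn1a at 0.39 to 0.94 and Trp53 at 0.07 to 0.22. In the Tle6 line Plk2 ranged from -1.89 to -1.06 and Btg2 from -1.05 to -0.30. Plk2 passed the threshold with no filter on low counts (adjusted p = 0.00666), with DESeq2 (0.0250) and when both lines shared 1 estimate of the spread (0.0249), and Btg2 with the shared spread (0.0325). The other 98 comparisons of the 7 genes in this line kept the side of the threshold. Sesn1 ranged from -1.25 to -0.02, Trp53 from -0.73 to -0.15, Mdm2 from -0.56 to -0.04 and Ccng1 from -0.49 to -0.08, and Cdkn1a from -0.57 to 0.75.

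The number of genes called moved far more. Against 440 of 18228 genes tested for Padi6 and 329 of 20276 for Tle6, it was 1625 of 37602 and 1447 of 38143 with no filter on low counts. It was 373 of 9635 and 221 of 9243 at a mean of at least 5 CPM. With DESeq2 it was 1322 and 1732, and with a shared spread 60 of 21392 and 2061 of 21392. It was 120 in the Tle6 line without library B of het replicate 2. Leaving out single replicates gave 61 to 258 in the Padi6 line, lowest without het replicate 3, and 119 to 292 in the Tle6 line, lowest without KO replicate 3. Total count scaling gave 158 higher and 144 lower in the Tle6 line, against 119 higher and 210 lower, with the median difference of all genes at 0.22 against 0.06. Of the listed genes other than the 7, 2 of 83 were called for Padi6 and 4 of 95 for Tle6. These became 1 of 83 in the Padi6 line with total count scaling, and 9 of 107 and 9 of 106 with no filter. At a mean of at least 5 CPM they were 4 of 53 and 1 of 54. DESeq2 gave 7 of 83 and 11 of 95, and the shared spread 0 of 96 and 16 of 96. They were 2 in the Tle6 line without library A of het replicate 2 and 0 without library B, and 0 to 2 in each line without single replicates. Where an arm is left with 1 replicate, it is taken to vary like the other group. The causes were not tested.

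The labels give no shared origin for replicate numbers, and the check on their pairing was not met, as it asks for over 0.1 in every pair. Deviations of same-numbered KO and het replicates correlated at 0.152, 0.048 and 0.093 for Padi6, and at 0.055 and 0.115 for Tle6, while values between unlike numbers were -0.137 to 0.058 for Padi6 and -0.115 and -0.055 for Tle6. In the Padi6 line each sample correlated best with its same-numbered partner except het replicate 2, which did with KO replicate 3 (0.058), a hint from the data only. With 2 het replicates in the Tle6 line, their deviations mirror each other. Its values between unlike numbers therefore only repeat the same-numbered ones with the sign turned, and nothing is read from them. With a replicate block 859 genes were called for Padi6 and 57 for Tle6, with 6 and 0 of the other listed genes. Scaling by spike-ins was not run, since they ranged from 5 to 13772 counts per library and many libraries lay under the minimum of 1000. In the Padi6 line het library 3 held 40 spike-in counts, against 4009 to 13772 in the other libraries. Cdkn1a, at 13 to 73 counts per replicate, is the gene that depth limits most.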
